A study of Mus musculus with 51 samples.

Results

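The T-lineage genes described here are Bcl11b, Gata3, Lef1, Tcf7, Themis, Cd3d, Cd3e, Cd3g, Trgv4 and Trbv1. They were chosen by name, with earlier results of these data known. Every probe set that the array's annotation assigns to 1 of these 10 genes was taken. This gave 19 probe sets of 9 genes out of 34945 named probe sets of 18193 genes. Tcf7 was not analysed here. A further probe set, assigned to both Trgv4 and Trgv2, was kept apart. The arrays measured RNA of 4 blood-forming populations sorted from the bone marrow of mice that were wild type or Mll-AF9 knock-in, the latter carrying a leukaemia fusion of Mll (Kmt2a) with AF9 (Mllt3) at the mouse's own Mll locus. They were the haematopoietic stem cell (HSC), which feeds all blood lineages, the common lymphoid progenitor (CLP), the common myeloid progenitor (CMP) and the granulocyte-macrophage progenitor (GMP). Wild type had 5 GMP, 5 CMP, 8 CLP and 5 HSC replicates and Mll-AF9 had 4, 4, 7 and 5, with repeat arrays of a CMP replicate averaged. The sources used here give neither age nor zygosity, and nothing says that replicates were separate mice, so a p-value covers no more than the scatter among these samples, and that scatter may be technical. Values are log2 RMA intensities, which can be compared between samples for 1 probe set but not between probe sets.

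T lymphocytes arise in the thymus from progenitors that leave the bone marrow. Notch signals in the thymus switch on Tcf7 and Gata3, and Bcl11b then closes the other lineage choices, while T-cell receptor genes are joined from V, D and J segments and the receptor is carried to the surface by the CD3 chains. In bone marrow CLP most of this programme is known as low or silent. A level of 4.62 on the log2 scale was therefore used to mark background. It is the 95th percentile of the mean levels of 114 receptor genes of smell and taste and keratin-associated genes. By this mark 11 of the 19 probe sets had a mean above background in at least 1 of the 8 groups, and 8 lay below it in every group.

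Marker levels were set against the titles first, because the source name of wild-type CLP replicate 1 and of the 7 Mll-AF9 CLP replicates reads CMP. Il7r, the interleukin-7 receptor chain used to sort CLP, ranged from 7.70 to 10.91 in Mll-AF9 CLP and from 3.81 to 4.67 in Mll-AF9 CMP. Klf1, an erythroid factor, ranged from 6.26 to 8.90 in Mll-AF9 CLP and from 11.10 to 11.49 in Mll-AF9 CMP. Dntt, a lymphoid gene, ranged from 10.88 to 12.30 in Mll-AF9 CLP and from 8.17 to 9.11 in Mll-AF9 CMP. In Mll-AF9 HSC, Il7r ranged from 2.99 to 4.59, Klf1 from 6.04 to 8.91 and Dntt from 10.01 to 11.98. Klf1 and Dntt thus set Mll-AF9 CLP apart from CMP but not from HSC. Other markers did not single out CLP either. Mpo, a myeloid gene, ranged from 11.16 to 12.57 in Mll-AF9 CLP and from 9.92 to 11.02 in Mll-AF9 CMP. Mecom, a stem cell gene, ranged from 9.73 to 10.27 in Mll-AF9 CLP and from 10.11 to 10.63 in Mll-AF9 HSC. The part of other cells in these levels was not tested. The samples titled CLP were kept with CLP. No Mll-AF9 replicate had a Y-linked signal. Among wild-type replicates 6 of 8 had one in CLP, 3 of 5 in GMP and likewise in CMP, and 2 of 5 in HSC. The gap between 3' and 5' control probe sets, which grows as RNA is shortened, was 3.36 to 3.91 in wild-type CLP and 3.68 to 4.93 in Mll-AF9 CLP, with Mll-AF9 replicates 1, 3 and 4 above the wild-type range.

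T-lineage genes were higher in Mll-AF9 CLP than in wild-type CLP for 8 of the 19 probe sets, which belong to Trgv4, Bcl11b, Themis and Trbv1, and lower for 0. Among all named probe sets the same limma test (Benjamini-Hochberg adjusted p below 0.05) called 0.129% higher and 0.117% lower. The median difference of the 19 probe sets was 0.66, against 0.04 over all probe sets. Because the genes were chosen with earlier results of these data known, these shares and medians are no test of the set. Both Trgv4 probe sets above background, Bcl11b 1450339_a_at and Themis 1436423_at had every Mll-AF9 replicate above every wild-type replicate. That pattern was met by 4 member probe sets and by 0.120% of all named ones. Gata3, Lef1, Cd3d, Cd3e and Cd3g were not called. In whole sorted samples, more cells that carry an RNA and more RNA per cell cannot be told apart.

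The count rested on the samples used. Without wild-type CLP replicate 1, 2, 3, 5 or 8, or without Mll-AF9 CLP replicate 2, 3, 4 or 7, it fell to 5. Over all named probe sets these fits called 27 to 44 higher, against 45 in the main fit. The calls of both Trgv4 probe sets, Themis 1436423_at and Bcl11b 1450339_a_at and 1452966_at were lost in 0 of the 15 fits that left out 1 replicate. Those of Trbv1 1452205_x_at, Bcl11b 1435227_at and Bcl11b 1438784_at were lost in 12, 11 and 11. The Y-linked level was taken as a covariate, or the 2 wild-type replicates without a Y-linked signal were set against the 7 Mll-AF9 replicates. With either, limma called 0 of the 19, beside 0 and 1 of all 34945 named probe sets called higher. The loss of calls was thus not particular to the members. The difference of Trgv4 1422189_x_at was then 3.82 ± 0.72 (SE, adjusted p = 0.357) and 3.88 ± 0.78 (adjusted p = 0.575), so genotype and the sex of the mice cannot be told apart by a call within CLP. With the 3' to 5' gap as a covariate 4 were called, beside 14 of all named probe sets called higher. The 4 were both of Trgv4 and Bcl11b 1450339_a_at and 1438784_at. Themis 1436423_at (1.96, adjusted p = 0.227), Bcl11b 1452966_at (1.78, adjusted p = 0.200), Bcl11b 1435227_at (3.20, adjusted p = 0.150) and Trbv1 1452205_x_at (1.88, adjusted p = 0.515) lost the call there. An alternative chosen after seeing the data kept only the Mll-AF9 replicates inside the wild-type 3' to 5' range. It called 4 member probe sets, beside 35 of all named ones higher, namely both of Trgv4, Bcl11b 1450339_a_at and Themis 1436423_at.

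**Figure D1:**
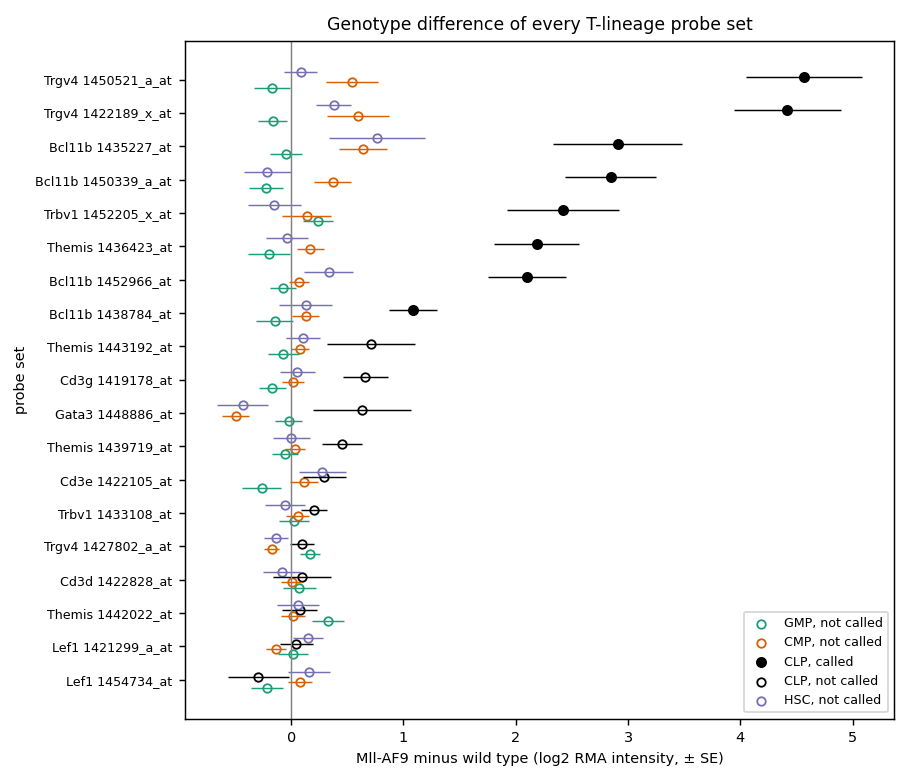
Log2 difference between genotypes, Mll-AF9 minus wild type (x axis, bars are the standard error) for each of the 19 probe sets (y axis) in GMP, CMP, CLP and HSC, with filled points for an adjusted p below 0.05. The 8 filled points are all CLP and lie between 1.08 and 4.57, while the points of the other populations lie between −0.49 and 0.77.

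Bcl11b encodes the zinc finger transcription factor that commits cells to the T lineage. Its probe set 1450339_a_at stood at a lowest, median and highest level of 4.53, 5.79 and 7.08 in wild-type CLP and of 7.25, 8.67 and 9.29 in Mll-AF9 CLP. The ranges did not meet, and 7 of the 8 wild-type replicates already lay above background. The means were 5.70 ± 0.99 (SD, n = 8) and 8.54 ± 0.75 (SD, n = 7), a difference of 2.84 ± 0.40 (SE, limma adjusted p = 0.00215) or 7.18-fold.

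Outside CLP the same Bcl11b probe set stayed near background. It read 4.40, 4.00, 3.99, 3.79 and 4.28 in wild-type GMP and 3.70, 3.91, 3.95 and 3.91 in Mll-AF9 GMP. It read 4.20, 4.08, 4.07, 3.72 and 3.98 in wild-type CMP and 4.45, 4.79, 3.85 and 4.43 in Mll-AF9 CMP. It read 3.83, 4.22, 4.30, 3.58 and 3.34 in wild-type HSC and 3.46, 3.98, 3.82, 3.42 and 3.54 in Mll-AF9 HSC. Mll-AF9 CMP replicate 2 was the sole value of these 6 groups above background.

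The other 3 Bcl11b probe sets were higher in Mll-AF9 CLP too. Probe set 1435227_at averaged 6.08 ± 1.65 (SD, n = 8) in wild type and 8.98 ± 0.70 (SD, n = 7) in Mll-AF9, with a difference of 2.91 ± 0.57 (SE, adjusted p = 0.0333). Wild-type replicates 6 and 7, at 7.68 and 8.52, lay inside the Mll-AF9 range, whose lowest value was 7.62. Probe sets 1452966_at and 1438784_at had wild-type means of 3.71 and 4.11, below background, and Mll-AF9 means of 5.81 and 5.19, so they were at least 2.21-fold (adjusted p = 0.00988) and at least 1.46-fold (adjusted p = 0.0328) higher. These bounds raise each wild-type replicate to at least the background level. Over the 43 replicates, which share their arrays, the Pearson correlation between pairs of Bcl11b probe sets was 0.74 to 0.96.

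**Figure D2:**
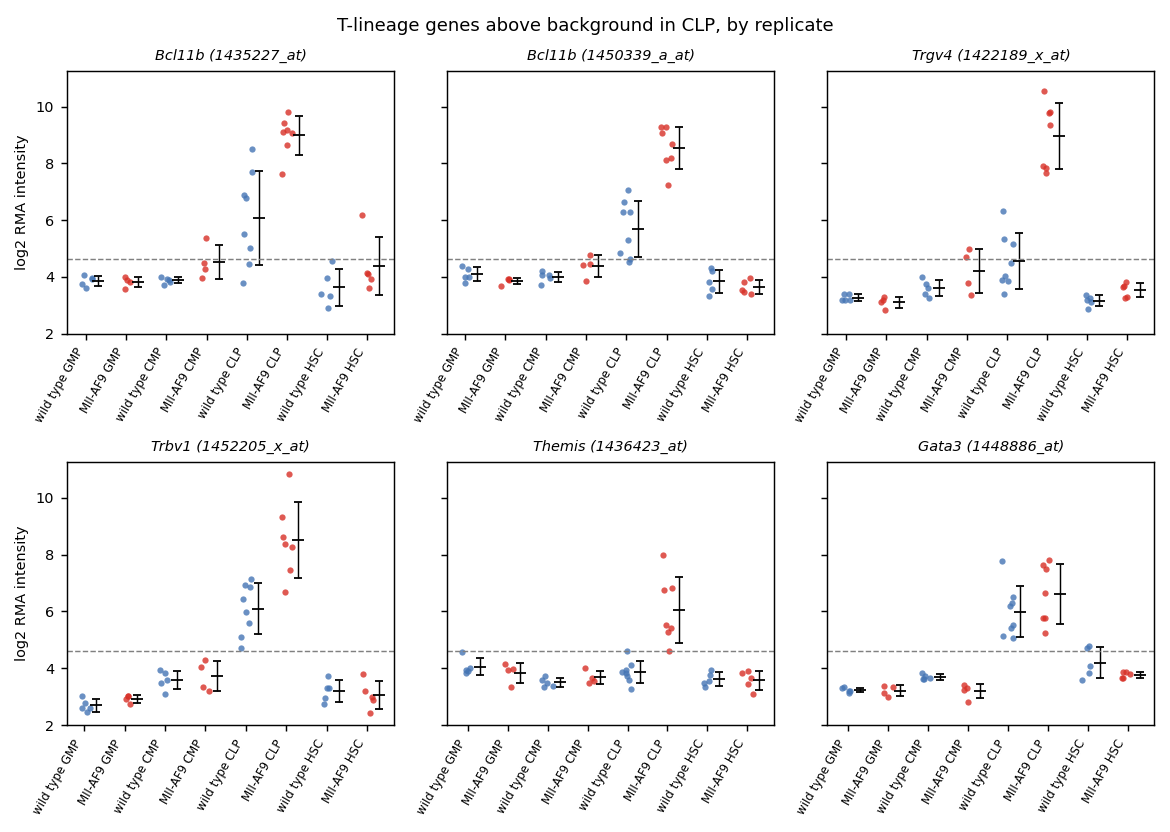
Log2 RMA intensity (y axis) of Bcl11b, Trgv4, Trbv1, Themis and Gata3 probe sets in every replicate of the 8 groups (x axis), with blue for wild type, red for Mll-AF9, bars for mean ± SD beside the points and a dashed line at the background level of 4.62. Bcl11b 1450339_a_at, Trgv4 1422189_x_at and Themis 1436423_at separate the CLP genotypes without overlap, whereas Gata3 spans 5.08 to 7.78 in wild-type CLP and 5.23 to 7.81 in Mll-AF9 CLP.

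Gata3, a zinc finger factor needed from the earliest thymic stages, was detected in CLP of both genotypes. Its lowest, median and highest levels were 5.08, 5.86 and 7.78 in wild-type CLP and 5.23, 6.64 and 7.81 in Mll-AF9 CLP. The ranges lay almost on top of each other, and the difference of 0.63 ± 0.44 (SE, adjusted p = 0.704) was not called. In HSC it read 4.06, 4.78, 3.85, 3.59 and 4.73 in wild type and 3.79, 3.66, 3.85, 3.66 and 3.88 in Mll-AF9, and 2 wild-type replicates lay above background. In GMP and CMP it was below background in every replicate, and the difference of −0.49 ± 0.12 in CMP missed the threshold (adjusted p = 0.180).

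Lef1, a TCF-family factor of the Wnt pathway that acts in thymocytes and in early B cells, was at the edge of detection. Probe set 1454734_at had a lowest, median and highest level of 4.01, 4.42 and 6.17 in wild-type CLP and of 4.16, 4.51 and 4.74 in Mll-AF9 CLP. Wild-type replicates 4, 6 and 7, at 5.39, 5.18 and 6.17, stood above every Mll-AF9 replicate. The difference of −0.29 ± 0.27 (SE, adjusted p = 0.771) was not called, and the other Lef1 probe set, 1421299_a_at, lay below background in all groups.

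Themis encodes an adaptor of T-cell receptor signalling that developing thymocytes need at positive selection. Its probe set 1436423_at was below background in every wild-type CLP replicate, with lowest, median and highest levels of 3.28, 3.86 and 4.60, and stood at 4.62, 5.51 and 7.97 in Mll-AF9 CLP. The Mll-AF9 values were all above the wild-type ones, the nearest pair by a narrow margin: replicate 6 lay at the background level itself. The difference was 2.19 ± 0.38 (SE, limma adjusted p = 0.0140), or at least 2.70-fold.

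In the other populations this Themis probe set stayed under background. It read 4.03, 3.93, 3.82, 3.91 and 4.56 in wild-type GMP and 3.95, 3.98, 4.14 and 3.34 in Mll-AF9 GMP. In wild-type CMP it read 3.50, 3.34, 3.39, 3.59 and 3.72 and in Mll-AF9 CMP 3.55, 4.02, 3.65 and 3.50. In wild-type HSC it read 3.77, 3.56, 3.36, 3.95 and 3.48 and in Mll-AF9 HSC 3.83, 3.08, 3.90, 3.66 and 3.44. The genotypes overlapped in all 3 populations. The other 3 Themis probe sets had no group mean above background, and their CLP differences of 0.71, 0.45 and 0.07 were not called. The pair 1436423_at and 1442022_at correlated at 0.27 over the 43 replicates, and the pairs of 1436423_at with 1439719_at and 1443192_at at 0.75 and 0.71.

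The CD3 chains gamma, delta and epsilon are the invariant signalling partners of every T-cell receptor, and their genes are neighbours on chromosome 9. They were near background throughout and none was called between genotypes in CLP. Cd3d had lowest, median and highest levels of 3.69, 4.03 and 4.93 in wild-type CLP and of 3.43, 4.15 and 5.59 in Mll-AF9 CLP, with 1 replicate above background on each side, and differed by 0.09 ± 0.26 (SE, adjusted p = 0.936). Cd3e had 3.87, 4.61 and 4.93 in wild-type CLP and 4.41, 4.81 and 5.49 in Mll-AF9 CLP, a difference of 0.29 ± 0.19 (adjusted p = 0.682).

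Cd3g was below background in all 43 replicates. Its lowest, median and highest levels were 2.62, 2.95 and 3.50 in wild-type CLP and 3.08, 3.54 and 4.59 in Mll-AF9 CLP. The groups overlapped and the difference of 0.66 ± 0.20 (SE, adjusted p = 0.319) was not called, although 1 model of all 8 groups called it (adjusted p = 0.0136). Cd3e was the member above background in the most groups, 6 of the 8, with its highest mean in wild-type GMP at 5.19 ± 0.22 (SD, n = 5). That mean lay under 5.64, the 99th percentile of the genes that set the background. Neighbouring groups in the order of the Cd3e means overlapped at every step.

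**Figure D3:**
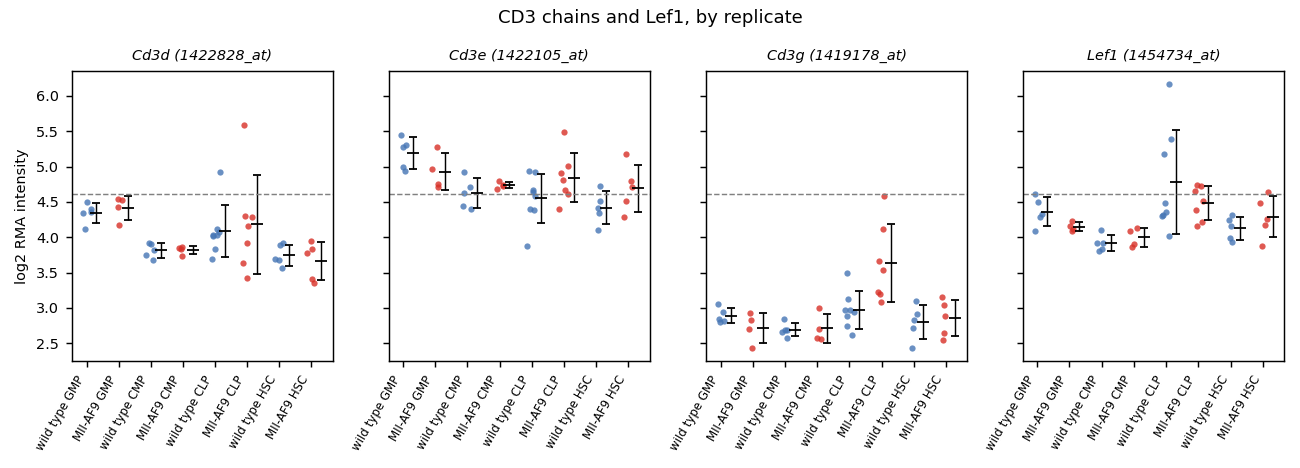
Log2 RMA intensity (y axis) of Cd3d, Cd3e, Cd3g and Lef1 1454734_at in every replicate of the 8 groups (x axis), drawn as mean ± SD beside the points, with the background level of 4.62 dashed. Cd3g stays under the line everywhere, and Cd3d crosses it in 1 wild-type and 1 Mll-AF9 CLP replicate.

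The promoters of Themis, called in Mll-AF9 CLP, and of the 3 CD3 genes, not called there, are shown as examples of both whose windows lie outside the annotated genes. Of the 10 genes, 8 had an entry in the RefSeq promoter table. The windows are RefSeq sequence on GRCm38.p6, 5' to 3' on the gene's strand, cut to the bases before the gene's start, which left 250 bases for Themis and Cd3g, 233 for Cd3d and 198 for Cd3e. Capitals mark the motifs searched on both strands of the 250 upstream bases: CTTTGA for TCF/LEF factors, AGATAA for GATA factors, TGTGGT for RUNX factors and TGGGAA for RBPJ, the DNA-binding partner of Notch.
Themis, chr10:28668110-28668359, plus strand: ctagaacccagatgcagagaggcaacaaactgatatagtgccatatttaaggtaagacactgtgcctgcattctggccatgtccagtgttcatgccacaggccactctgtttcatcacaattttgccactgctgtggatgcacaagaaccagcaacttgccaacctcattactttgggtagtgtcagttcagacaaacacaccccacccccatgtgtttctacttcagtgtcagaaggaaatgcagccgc
Cd3g, chr9:44980432-44980681, minus strand: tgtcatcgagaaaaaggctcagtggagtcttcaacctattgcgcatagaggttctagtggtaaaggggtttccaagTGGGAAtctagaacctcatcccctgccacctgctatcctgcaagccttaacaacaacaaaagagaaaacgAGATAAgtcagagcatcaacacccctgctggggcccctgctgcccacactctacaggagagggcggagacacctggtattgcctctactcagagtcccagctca
Cd3d, chr9:44981536-44981768, plus strand: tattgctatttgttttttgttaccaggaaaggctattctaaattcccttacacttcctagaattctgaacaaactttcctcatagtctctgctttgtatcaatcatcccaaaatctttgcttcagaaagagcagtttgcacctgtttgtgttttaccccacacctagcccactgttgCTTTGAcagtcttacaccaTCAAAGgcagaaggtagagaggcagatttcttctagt
Cd3e, chr9:45009664-45009861, minus strand: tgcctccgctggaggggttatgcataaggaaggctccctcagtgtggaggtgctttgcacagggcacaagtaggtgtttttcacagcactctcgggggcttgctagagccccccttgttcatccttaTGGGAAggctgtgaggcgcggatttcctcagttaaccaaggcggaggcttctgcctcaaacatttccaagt

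The Themis window held none of the 4 motifs. The Cd3g window held 1 AGATAA and 1 TGGGAA, the Cd3d window 2 CTTTGA matches, 1 on each strand, and the Cd3e window 1 TGGGAA. Among the windows not printed, that of Bcl11b held 1 CTTTGA, 1 window of Lef1 held 2 and that of Gata3 none of the motifs. Of 32851 promoter windows of 250 bases, 13.8% held CTTTGA, 9.99% AGATAA, 14.0% TGTGGT and 21.6% TGGGAA. A match is a run of letters and not a measured site.

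Trgv4 is a V segment of the gamma chain, used in the receptors of gamma-delta T cells. It showed the largest differences among the 19 probe sets. Probe set 1422189_x_at had a lowest, median and highest level of 3.40, 4.26 and 6.31 in wild-type CLP and of 7.65, 9.35 and 10.56 in Mll-AF9 CLP. The groups were separated by more than a log2 unit, and 3 of the 8 wild-type replicates, 4, 5 and 7, lay above background. The difference was 4.42 ± 0.47 (SE, limma adjusted p = 0.000149), at least 15.9-fold.

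Probe set 1450521_a_at of Trgv4 gave a lowest, median and highest level of 3.17, 3.72 and 5.93 in wild-type CLP and of 7.32, 9.38 and 10.42 in Mll-AF9 CLP. Again the ranges were apart. The difference was 4.57 ± 0.52 (SE, adjusted p = 0.000255), at least 14.1-fold. The last Trgv4 probe set, 1427802_a_at, was below background in all groups and differed by 0.09 ± 0.11 (adjusted p = 0.818). Gamma V segments are alike in sequence, and which of them these probe sets bind was not analysed here, so the assignment to Trgv4 is uncertain.

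Outside CLP, Trgv4 1422189_x_at was under background except in CMP of Mll-AF9 mice. It read 3.76, 4.00, 3.62, 3.40 and 3.26 in wild-type CMP and 4.98, 4.70, 3.36 and 3.78 in Mll-AF9 CMP, where replicates 1 and 2 were above background and above every wild-type replicate. The difference of 0.60 ± 0.28 in CMP was not called (adjusted p = 0.791). It read 3.19, 3.20, 3.19, 3.40 and 3.40 in wild-type GMP and 3.20, 2.83, 3.12 and 3.29 in Mll-AF9 GMP. In HSC it read 3.18, 2.87, 3.13, 3.28 and 3.38 in wild type and 3.31, 3.82, 3.65, 3.68 and 3.26 in Mll-AF9, all under background.

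Trbv1, a V segment of the beta chain, was detected in CLP of both genotypes by 1 probe set. Probe set 1452205_x_at had a lowest, median and highest level of 4.70, 6.21 and 7.14 in wild-type CLP and of 6.68, 8.36 and 10.84 in Mll-AF9 CLP. All replicates were above background, and Mll-AF9 replicate 6, at 6.68, fell inside the wild-type range. The difference was 2.42 ± 0.50 (SE, adjusted p = 0.0453), 5.34-fold, and its call was lost in 22 of 29 alternatives. Probe set 1433108_at lay below background in all groups, and its correlation with 1452205_x_at over the 43 replicates was 0.09. Which transcripts 1452205_x_at binds was not analysed here, so its assignment to Trbv1 is uncertain.

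**Figure D4:**
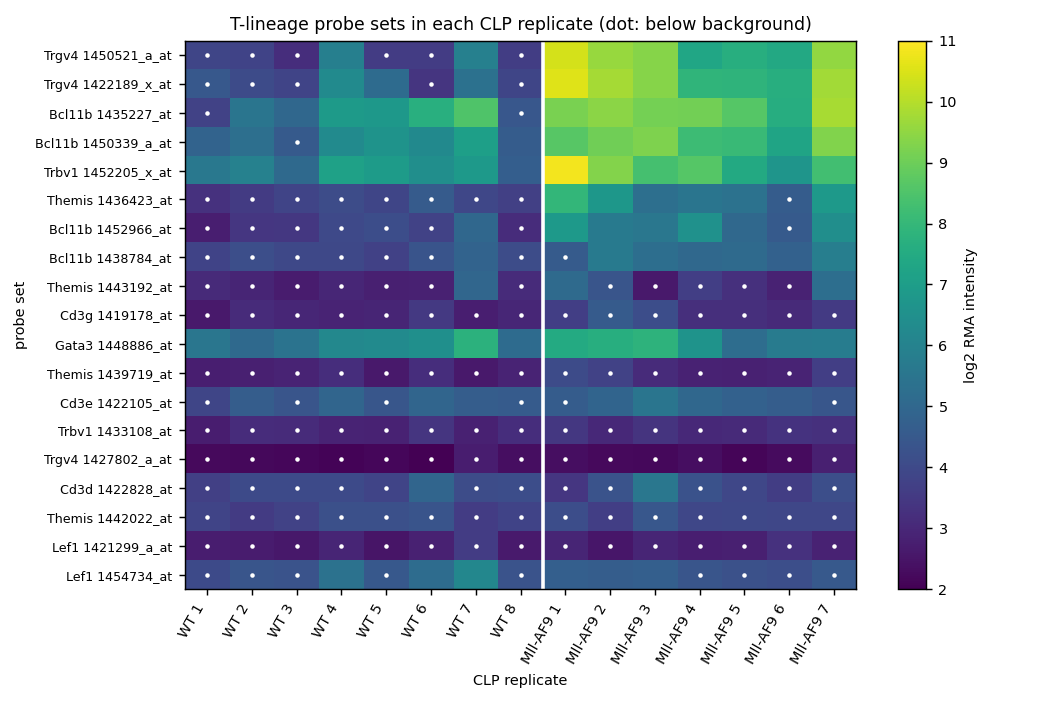
Log2 RMA intensity (colour) of the 19 probe sets (rows) in the 8 wild-type and 7 Mll-AF9 CLP replicates (columns), with a dot where a replicate lies below the background level. Colours can be compared along a row, and the Trgv4 and Bcl11b rows brighten at the white line between genotypes.

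CLP replicates of 1 genotype differed among themselves. In wild-type replicates 1 to 8, Bcl11b 1450339_a_at read 4.85, 5.29, 4.53, 6.30, 6.64, 6.29, 7.08 and 4.63. Trbv1 1452205_x_at read 5.61, 5.97, 5.09, 7.14, 6.92, 6.45, 6.86 and 4.70, and Il7r 8.42, 9.33, 9.76, 10.52, 9.99, 10.21, 10.94 and 7.16. Each of the 3 genes had its highest 4 values in replicates 4, 5, 6 and 7. Trgv4 1422189_x_at did not share this in wild type: replicates 4, 5 and 7 lay above background, but replicate 6 had the lowest level, 3.40. In Mll-AF9 CLP replicates 1 to 7, Trgv4 1422189_x_at read 10.56, 9.80, 9.35, 7.90, 7.84, 7.65 and 9.76. Il7r did not follow that order there, with 10.17 in replicate 4 and 8.50 in replicate 7. The part of sorting purity in these spreads was not tested.

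In GMP, CMP and HSC limma called 0 of the 19 probe sets between genotypes, against 0.120%, 0.143% and 0.00858% of all named probe sets called higher and 0.0343%, 0.0858% and 0.00286% lower. An unadjusted p below 0.05 was reached by 1, 6 and 1 of them, and the smallest adjusted p was 0.553, 0.180 and 0.801. How many of all named probe sets reached the unadjusted threshold was not counted, so these counts show no excess. The 6 in CMP had means below background in both genotypes. Of them, Gata3 (−0.49) and Trgv4 1427802_a_at (−0.18) were lower in Mll-AF9 and the rest higher. The differences lay between −0.26 and 0.33 in GMP, between −0.49 and 0.64 in CMP and between −0.43 and 0.77 in HSC. In CMP the largest was Bcl11b 1435227_at at 0.64 ± 0.21 (SE, adjusted p = 0.507).

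The difference between populations was then tested itself, as the genotype difference in CLP minus that in another population. These 3 contrasts share the CLP samples, so they are not independent of each other. Against GMP, 5 of the 19 probe sets were called higher and 0 lower, where 0.0286% and 0.0315% of all probe sets were. They were Trgv4 1422189_x_at (4.58 ± 0.56, limma adjusted p = 7.42e-06) and 1450521_a_at (4.74), Bcl11b 1450339_a_at (3.07) and 1452966_at (2.17) and Themis 1436423_at (2.39).

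Against CMP, 4 were called higher and 0 lower, beside 0.0229% and 0.0286% of all probe sets: Trgv4 at 3.82 and 4.02 and Bcl11b 1450339_a_at and 1452966_at at 2.47 and 2.03. The last of these was not called without Mll-AF9 CLP replicate 7 (1.92, adjusted p = 0.0569). Themis joined the calls without wild-type CLP replicate 6 or without Mll-AF9 CLP replicate 3, 4, 5 or 6, and Trbv1 without Mll-AF9 CLP replicate 6. Against HSC, 6 were called higher and 0 lower, beside 0.0830% and 0.0429% of all probe sets. They were Trgv4 at 4.04 and 4.49, Bcl11b at 3.06 and 1.77, Themis at 2.23 and Trbv1 at 2.57 (adjusted p = 0.0446). Bcl11b 1452966_at and Trbv1 lost that call in 10 of the 15 fits that left out 1 CLP replicate, with adjusted p-values up to 0.0909.

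With the Y-linked level as a covariate over all 8 groups, both Trgv4 probe sets and Bcl11b 1450339_a_at kept their call in each of the 3 contrasts. The Trgv4 1422189_x_at values were then 4.53 against GMP, 3.79 against CMP and 3.96 against HSC. That model used the same Y-linked term for all groups, and no Mll-AF9 replicate had a Y-linked signal. It cannot adjust for a sex difference particular to CLP, so the kept calls do not separate genotype from sex there. The same 3 probe sets stayed called with the 3' to 5' gap as a covariate, and Themis 1436423_at kept its calls against GMP and HSC with either. Bcl11b 1452966_at lost its call against HSC with the Y-linked covariate (adjusted p = 0.0719) and against GMP and HSC with the 3' to 5' covariate (adjusted p = 0.0692 and 0.105). Trbv1 1452205_x_at lost its call against HSC with the 3' to 5' covariate (adjusted p = 0.129).

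Levels in CLP were also set against the other populations of the same genotype. In wild type, CLP exceeded GMP at 6 of the 19 probe sets, with 14.5% of all probe sets higher and 25.3% lower. They were Trbv1 (3.40 ± 0.40, SE, limma adjusted p = 5.07e-09), Gata3 (2.76), Bcl11b 1435227_at (2.21) and 1450339_a_at (1.61), and Trgv4 1422189_x_at (1.28) and 1450521_a_at (1.06). The last call was lost without wild-type CLP replicate 4 or 7 (adjusted p = 0.0838 and 0.0841). Both Trgv4 probe sets had means below background in wild-type CLP, at 4.56 and 4.19, and in wild-type GMP, at 3.28 and 3.13. The GMP means of Trbv1, Gata3 and the Bcl11b probe sets also lay below background. Cd3e was the 1 member lower in wild-type CLP, by −0.64 ± 0.17 (adjusted p = 0.00226). Trbv1 1433108_at, below background in both groups, joined it without wild-type CLP replicate 6 (−0.31, adjusted p = 0.0427).

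Against wild-type CMP, 5 were higher in CLP and 0 lower, beside 8.97% and 11.2% of all probe sets: Trbv1 (2.51), Gata3 (2.30), Bcl11b (2.19 and 1.69) and Lef1 (0.86 ± 0.21, SE, adjusted p = 0.00186). The CMP arrays may have been normalised apart from the rest, which was not tested. Against wild-type HSC, 4 were higher and 0 lower, beside 0.180% and 0.0458% of all probe sets: Trbv1 (2.88 ± 0.40, adjusted p = 2.13e-05), Bcl11b (2.44 and 1.85) and Gata3 (1.79 ± 0.34, adjusted p = 0.00413). Wild-type CLP was thus called higher than all 3 other populations at Gata3, Bcl11b 1435227_at and 1450339_a_at and Trbv1 1452205_x_at. Bcl11b 1438784_at and 1452966_at and Trbv1 1433108_at were not called against any of these populations in the main fit. Against GMP, Bcl11b 1438784_at (−0.31) and Trbv1 1433108_at (−0.26) were lower in wild-type CLP and Bcl11b 1452966_at (0.51) was higher.

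In Mll-AF9 mice, CLP exceeded GMP, CMP and HSC at 11, 12 and 11 probe sets, beside 11.3%, 8.13% and 1.89% of all probe sets. None of the 19 was called lower, beside 16.1%, 8.29% and 1.08% of all probe sets. Trgv4 1422189_x_at was higher by 5.87, 4.77 and 5.43, Trbv1 by 5.58, 4.79 and 5.45, Bcl11b 1450339_a_at by 4.68, 4.16 and 4.90, Gata3 by 3.41, 3.42 and 2.85 and Themis 1436423_at by 2.20, 2.37 and 2.47. For each of these the GMP, CMP and HSC means lay below background. With those replicates raised to at least background, Trgv4 was at least 20.6-, 19.0- and 20.6-fold higher and Trbv1 at least 14.9-fold in each. Gata3 was at least 4.01-fold and Themis at least 2.70-fold higher in each. Cd3g was higher by 0.91, 0.92 and 0.78, below background in all 4 populations. Against HSC, Themis 1439719_at was called at an adjusted p of 0.0470 and lost the call in 7 of the 15 fits without 1 CLP replicate, and against CMP so did Themis 1443192_at (0.0475). Without Mll-AF9 CLP replicate 3, Cd3d was called lower in CLP than in GMP (−0.47, adjusted p = 0.0334).

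Over the 8 groups, Mll-AF9 CLP had the highest mean of Bcl11b, Trgv4, Trbv1, Themis and Gata3, at the probe sets above background. Wild-type CLP came next for Gata3, Trbv1 1452205_x_at, Trgv4 1422189_x_at and Bcl11b 1435227_at and 1450339_a_at, but not for Themis 1436423_at or for Bcl11b 1438784_at, where wild-type GMP came next at 4.42. The step from Mll-AF9 to wild-type CLP had no overlap for Trgv4 1422189_x_at, Bcl11b 1450339_a_at and Themis 1436423_at and had overlap for Gata3, Trbv1 1452205_x_at and Bcl11b 1435227_at. Below CLP, the ranges of Gata3 and Trbv1 in the next group, wild-type HSC and Mll-AF9 CMP, did not reach those of wild-type CLP. Those of Trgv4 and the Bcl11b probe sets 1435227_at and 1450339_a_at did.

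Other T-cell genes were counted by list. With 1 probe set per gene and p-values adjusted over all named probe sets, limma called 0.181% of 18193 genes higher and 0.115% lower. Of 21 measured genes of T-cell receptor and CD3 signalling, 1 was higher, Sh2d1a, the adaptor SAP, by 1.38 ± 0.21 (SE, adjusted p = 0.00310), with both means below background, and 0 were lower. The list's median difference was 0.18, against 0.06 over all genes, and 7 of its genes lay below background in both groups. Its mean level per replicate had a median of 5.07 in wild-type CLP and 5.41 in Mll-AF9 CLP. Zap70 and Lat, the kinase and the scaffold beneath CD3, differed by 0.13 and 0.47 and were not called, nor was Cd247, the zeta chain, at 0.45. Of 25 genes of the Notch pathway and early T specification 0 were called, with a median of 0.15. Thy1, a surface antigen of T cells and early progenitors, had the highest difference of them at 1.94 ± 0.44 (adjusted p = 0.0887). Notch1 and Hes1 stood at −0.54 (adjusted p = 0.516) and −1.24 (adjusted p = 0.394), and Ptcra, the pre-T-cell receptor chain, below background at 0.12.

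Of 12 further probe sets of 8 T-cell receptor genes, 1 was called higher, Trbv13-2, which went from 4.25 to 6.09 (1.84 ± 0.37, SE, adjusted p = 0.0353). Trgv1 went from 5.44 to 7.26, and the difference of 1.82 ± 0.50 was not called (adjusted p = 0.252). The alpha-chain probe sets differed by at most 0.24.

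Genes of natural killer and innate lymphoid cells, which share Gata3, Bcl11b and receptor segments with T cells in some of their subsets, were followed beside these changes. Of 19 measured, 2 were higher in Mll-AF9 CLP: Gzma, a cytotoxic granule protease, by 3.46 ± 0.33 (SE, limma adjusted p = 8.38e-05) and Ccl5, a chemokine of cytotoxic cells, by 1.95 ± 0.34 (adjusted p = 0.0128). Gzma ranged from 3.70 to 5.17 in wild-type CLP and from 6.27 to 9.03 in Mll-AF9 CLP, with no overlap. The mean level over the list ranged from 4.91 to 6.37 in wild-type CLP, with a median of 5.27, and from 5.41 to 6.25 in Mll-AF9 CLP, with a median of 6.05. The median difference over the genes was 0.14. Of the 19 genes, 12 had a mean above background in at least 1 of the genotypes and 7 in neither. The 7 included Ncr1, Tbx21, Eomes, Klrk1 and Il2rb, which were named after their values were seen. Klrd1 and Il18r1, a receptor subunit and a cytokine receptor of natural killer and innate lymphoid cells, were above background. Their differences of 1.30 (adjusted p = 0.522) and 1.92 (adjusted p = 0.0635) were not called. Gzmb and Prf1 differed by 0.00 and 0.51 and were not called. The part of such cells in the T-lineage differences was not tested.

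Of 13 early lymphoid genes 0 were called, with a median of −0.41, and Il7r and Rag1 differed by −0.06 and −0.56. Of 16 B-lineage genes 3 were lower and 0 higher, with a median of −0.57. They were Vpreb1, a surrogate light chain of the pre-B-cell receptor (8.17 to 4.63, adjusted p = 0.00299), the B-cell adaptor Blnk (8.21 to 5.44, adjusted p = 0.00475) and Cnn3 (10.22 to 8.43, adjusted p = 0.00122). The list's mean level ranged from 5.25 to 6.51 in wild-type CLP and from 4.72 to 5.37 in Mll-AF9 CLP.

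**Figure D5:**
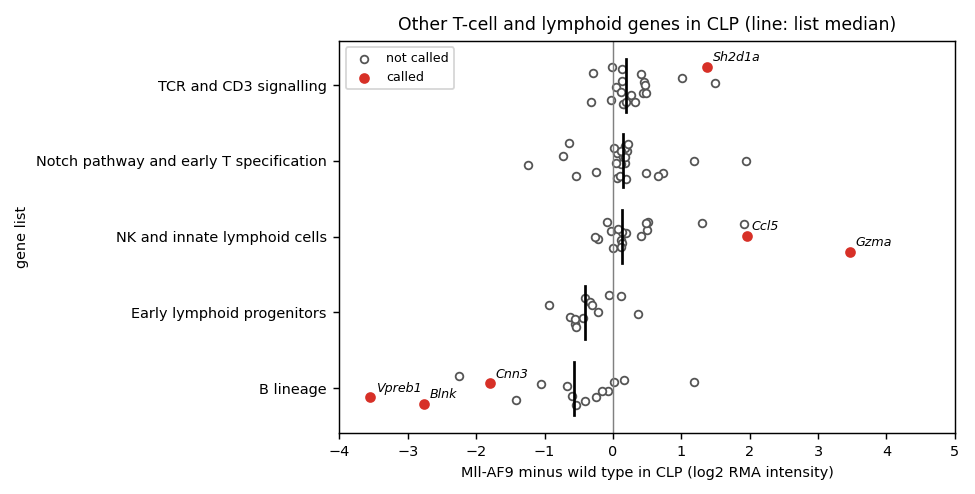
Log2 difference between genotypes in CLP, Mll-AF9 minus wild type (x axis), for the measured genes of 5 lists (y axis, 1 point per gene), with filled red points for an adjusted p below 0.05 and a black line at each list's median. Gzma at 3.46 and Ccl5 at 1.95 lie to the right, and Vpreb1, Blnk and Cnn3, between −3.55 and −1.79, to the left.

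The genes whose levels most resembled those of Bcl11b over the 43 replicates, by Pearson correlation with no test, were Trgv1 (0.93), Trbv1 (0.93), Sytl2 (0.90), Trgv4 (0.90) and Thy1 (0.89). For Trgv4 they were Trbv1 (0.91), Bcl11b (0.90), Trgv1 (0.90), Gzma (0.88) and Thy1 (0.88). For Themis they were Gzma (0.92), Sh2d1a (0.89), Trgv4 (0.87), Fam169b (0.85) and Insl5 (0.84). These values share arrays. Sytl2, of the Bcl11b genes, had means of 4.66 and 5.78 in wild-type and Mll-AF9 CLP and at most 3.77 elsewhere. Gzma, Sh2d1a, Fam169b and Insl5, of the Themis genes, were raised in Mll-AF9 CLP alone. Their wild-type CLP means lay below the highest mean outside CLP. Gzma, for example, had 4.30 and 7.76 in wild-type and Mll-AF9 CLP and at most 4.44 elsewhere. No CD3 gene was among the genes named here.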

How the data were processed

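Total RNA of sorted cells was amplified in a 2-cycle labelling reaction and hybridised to 51 Affymetrix arrays, per the labels' protocols. The authors deposited 1 linear intensity per probe set and array, made with RMA per the submitters' processing notes with no version; the sources used here do not say whether 1 normalisation covered all arrays. Here the intensities were taken to log2, and repeat runs of 8 CMP replicates were averaged, which left 43 replicates. Control probe sets (64 of 45101) were left out, and 34945 probe sets with 1 listed gene were tested; 932 had several genes and 9160 none. Symbols were updated through the GRCm38.p6 gene table for 34741. Groups follow the sample titles.

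The genotype difference was fitted per population (limma 3.58.1, R 4.3.3; eBayes with an intensity trend, Benjamini-Hochberg over all named probe sets, threshold 0.05), and populations in 1 model of all 8 groups. Standard errors are limma's. Calls were checked on simulated data. Arrays have no depth, and their number limits the precision. Members and gene lists were chosen with earlier results of these data known. Named genes were the members, up to 4 called genes per list in CLP, label markers and the 5 genes most alike Bcl11b, Trgv4 and Themis. Other list genes named without a call, among them the markers of natural killer cells, were chosen after their values were seen. Alternatives changed the probe sets, filter, offset, scaling, variance model, covariates, replicates, repeat runs and the background level. The pairing of equal replicate numbers was checked and not used.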

Additional observations from a re-analysis of the deposited data

Results flagged for a closer look

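Of 152 groups of values, 13 (8.55%) had a replicate that stood apart from the rest of its group by Dixon's criterion, which chance meets in about 1 in 20. The high ones in wild-type CLP were Lef1 1421299_a_at at 3.61, Cd3d at 4.93, Trgv4 1427802_a_at at 2.71 and Themis 1443192_at at 4.96. Those in Mll-AF9 CLP were Cd3d at 5.59 and Trgv4 1427802_a_at at 2.79. In Mll-AF9 HSC they were Bcl11b 1435227_at at 6.19, Themis 1443192_at at 3.43 and Trbv1 1433108_at at 3.23. Themis 1436423_at was high at 4.56 in 1 wild-type GMP replicate and Trgv4 1427802_a_at at 2.23 in 1 Mll-AF9 CMP replicate. Low values were Themis 1439719_at at 2.53 and Bcl11b 1450339_a_at at 3.70 in Mll-AF9 GMP. Of these 13, those of Cd3d, Themis 1443192_at in wild-type CLP and Bcl11b 1435227_at lay above the background level.

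The genotype difference itself differed between CLP and another population (limma contrast of contrasts). For Trgv4 1422189_x_at the differences were 4.58, 3.82 and 4.04 against GMP, CMP and HSC, and for Trgv4 1450521_a_at 4.74, 4.02 and 4.49. For Bcl11b they were 3.07, 2.47 and 3.06 at 1450339_a_at and 2.17, 2.03 and 1.77 at 1452966_at. For Themis 1436423_at they were 2.39 against GMP and 2.23 against HSC, and for Trbv1 1452205_x_at 2.57 against HSC.

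The probe set 1422188_s_at, assigned to Trgv4 and Trgv2 together and so left out above, averaged 4.46 ± 1.29 (SD, n = 8) over wild-type CLP replicates and 9.20 ± 1.15 (SD, n = 7) over those of Mll-AF9. Its difference was 4.74 ± 0.54 (SE, limma adjusted p = 0.000324).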

How the results depend on the processing

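No called difference of a T-lineage probe set changed direction in any alternative run, where differences called in neither setting were taken as without direction. In GMP, CMP and HSC all alternatives called 0. The count of 8 higher in CLP was 4 with 1 probe set per gene (9 tested), 2 of the 3 probe sets above background, 4 with the replicate block, 0 with the Y-linked covariate, 4 with the 3' to 5' covariate, 0 among replicates without a Y-linked signal and 4 in an alternative chosen after seeing the data, with Mll-AF9 replicates inside the wild-type 3' to 5' range. Over all probe sets tested, 37 were called higher with 1 probe set per gene, 26 above background and 34 with the replicate block. With the Y-linked covariate 0 were, and 1 among replicates without a Y-linked signal. The 3' to 5' covariate gave 14 and the alternative chosen after seeing the data 35. The member count was 5 to 8 without 1 replicate. Scaling by the median or by quantiles gave 7 each, beside 34 and 41 of all named probe sets called higher. The fit of 1 model of all groups gave 9, beside 187, against 45 in the main fit.

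The genotype effect in CLP was higher than in GMP, CMP and HSC at 2, 1 and 3 probe sets with 1 per gene. Of all those tested, 7, 4 and 20 were. Above background it was higher at 1 each, beside 4, 2 and 5 of all. With array weights it was higher at 8 against GMP and 8 against CMP, beside 55 and 56 of all named probe sets. The main fit called 10 and 8 of all of them higher in these 2 contrasts. CLP of Mll-AF9 exceeded GMP, CMP and HSC at 6 each with 1 per gene, beside 2300, 2120 and 492 of all those tested. Above background it did so at 2 each, beside 3189, 2523 and 614. Wild-type CLP did so at 2 each above background, beside 3923, 2641 and 28. The count lower in wild-type CLP than in GMP was 2 with array weights and 2 with the replicate block, beside 10493 and 8151 of all named probe sets. It was 1 to 2 without 1 replicate. In Mll-AF9 it was 1 with array weights, beside 8452 of all, and 0 to 1 without 1 replicate. The filter and the choice per gene test fewer probe sets; other causes were not tested.

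Equal replicate numbers did not pair the samples: over 20 such pairs across genotypes the correlation of deviations ran from −0.27 to 0.15, 3 pairs passed 0.1, and 3 correlated best with their own number. With the replicate block in CLP the calls of both Trgv4 probe sets and of Bcl11b 1450339_a_at and 1452966_at stayed. The background level was 4.26 at the 90th and 5.64 at the 99th percentile, in place of 4.62. Signals near background limit the CD3 and Lef1 comparisons.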
